A study of Bursaphelenchus xylophilus with 12 samples.

Results

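In the pine wood nematode Bursaphelenchus xylophilus, 38 genes shifted one way between 12 h and 24 h in adjuvant and the opposite way in emamectin benzoate. They were selected on the measured values themselves, from a table of 18036 gene IDs. The candidates were the 17704 IDs that start with BXY. A gene qualified with a mean of 5 to under 800 FPKM over the 12 libraries (fragments per kilobase of gene length, relative to all fragments of the library) and a spread under 0.6 at 12 h. That spread is the root of the mean of the variances of log2(FPKM + 1) within the 2 groups of 12 h libraries. Of the 10333 IDs within the limits on the mean, 9310 also met the limit on the spread, and these 9310 are called background genes below. Shares of tested IDs in the linear model are instead over 13768 IDs, chosen without these limits. Shares for a left-out library are over the genes within the limits without that library. Both changes over time then had to be at least 0.5 log2 units with opposite signs, and the agents had to differ at 24 h by at least 0.5 in the sign of the change in emamectin benzoate. In 21 genes the 24 h mean was higher than the 12 h mean in emamectin benzoate and lower in adjuvant. They are called EB-up here. In the other 17 genes, called EB-down, it was lower in emamectin benzoate and higher in adjuvant.

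Adult worms of strain NB-6 had been raised on plates of the fungus Botrytis cinerea grown for 7 d and were then immersed at 25 °C. The 12 libraries form 4 groups of 3, each library from 200 adults. EB24 and EB12 worms spent 24 h or 12 h in 0.1 mg/L emamectin benzoate. EC24 and EC12 worms spent 24 h or 12 h in the adjuvant (octylphenol polyoxyethylene-10 with n-butyl alcohol) at an equal concentration. The titles call the adjuvant groups EC and the treatment description calls them ON, so EC was read as adjuvant by elimination. Every group had been immersed, none of the 12 libraries is from worms outside a bath, and the labels give no sex. Whether the replicates are separate cultures is not stated, so the p-values reflect the spread of these 12 libraries alone, and that spread may be technical.

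Pine wilt disease begins when this nematode, carried by longhorn beetles, enters a pine and multiplies in its tissue. Emamectin benzoate, an avermectin injected into trunks to protect trees, opens glutamate-gated chloride channels of invertebrate nerve and muscle and paralyses them. Avermectins are lipophilic and are brought into water with surfactants and solvents, which can act on worms themselves, so a bath of adjuvant alone is the usual comparison. The IDs were deposited without symbols or descriptions, and genes are therefore given by ID with no role.

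The FPKM values summed to between 824088 and 944595 per library, and between 12543 and 13358 IDs reached at least 1 FPKM. Read totals are unknown, so no counting error can be given. All 38 genes were above 0 in every library, with values from 1.61 to 860.57 FPKM. The 12 h libraries were less alike than the 24 h libraries. The median spread of the 9310 background genes was 0.24 log2 units at 12 h and 0.09 at 24 h. The 12 h titles carry a group number that the 24 h titles lack, the labels name no batch, and time cannot be told apart from anything else that differed between the library sets. In RNA of whole worms, fewer cells of a type and less RNA per cell cannot be told apart.

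**Figure D1:**
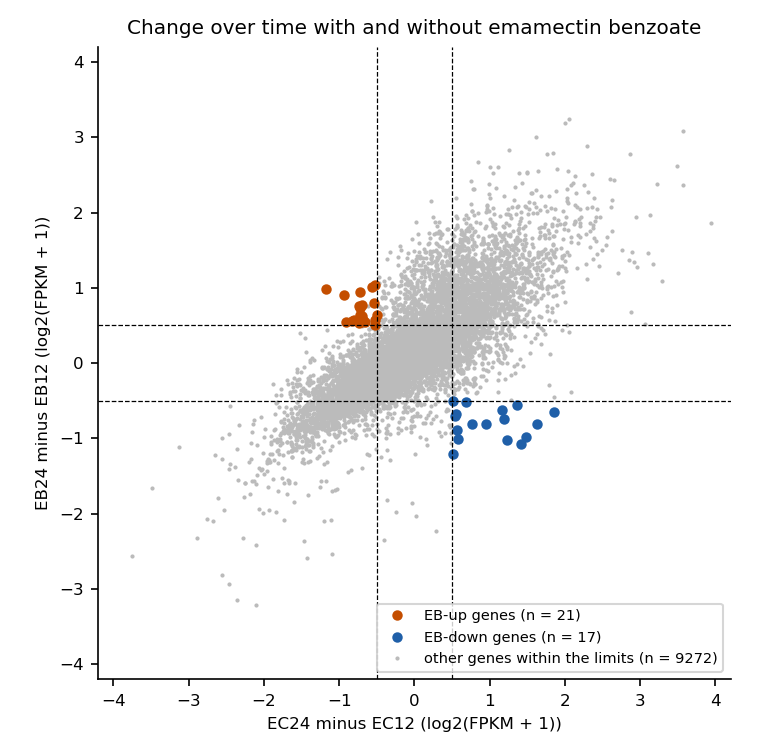
Each point is 1 of 9310 genes, with EC24 minus EC12 on the x axis and EB24 minus EB12 on the y axis, both in log2(FPKM + 1), and dashed lines at 0.5 and -0.5. The 21 EB-up genes lie at the upper left and the 17 EB-down genes at the lower right, beside a cloud that runs from the lower left to the upper right.

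The EB-up genes reached 1.63 to 3.13 times as much FPKM in EB24 as in EC24, with a median of 1.92 times. Their EC24 means were 0.384 to 0.682 times their EC12 means, and their EB24 means 1.44 to 2.19 times their EB12 means. Most were expressed at low levels. In 16 of the 21 the mean over the 12 libraries was under 20 FPKM, against 32.7% of the background genes. In 4 it was at least 100 FPKM, and 1 lay between.

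On the log2(FPKM + 1) scale the 4 abundant EB-up genes had the widest gaps between agents at 24 h of that set, apart from BXY_0830000. BXY_1259500 had 389, 415 and 385 FPKM in EB24 libraries, against 122, 133 and 126 FPKM in EC24. At 12 h it had 219, 221 and 254 FPKM in EB12, against 145, 229 and 261 in EC12. The EB24 values were highest, the EC24 values lowest, and the 12 h groups overlapped in between. Its log2 difference was 1.64 between agents at 24 h and 0.17 at 12 h, 0.78 over time in EB and -0.69 in EC.

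BXY_0663300, the most abundant of the 21, had 425, 455 and 436 FPKM in EB24 libraries, against 149.6, 177 and 175 in EC24. Its 12 h values were 334, 238 and 332 FPKM in EB12, against 229, 304 and 383 in EC12. The agents were apart at 24 h, with 439 ± 15.3 FPKM in EB24 and 167 ± 15.3 in EC24, and overlapped at 12 h, with 301 ± 54.4 in EB12 and 305 ± 77.2 in EC12 (SD, n = 3 each). BXY_0977300 stood at 196, 197 and 163 FPKM in EB24 and at 58.8, 75.01 and 64.01 FPKM in EC24. It stood at 115, 138 and 105 FPKM in EB12 and at 71.5, 152 and 120.0 FPKM in EC12. EC12 replicate 1 was lower than EC24 replicate 2, so the EC groups overlapped over time while the EB groups did not. BXY_1016900 had means of 151 ± 12.3 FPKM in EB24, 64.8 ± 5.02 in EC24, 104 ± 29.7 in EB12 and 96.1 ± 30.2 in EC12, and its 12 h groups overlapped. In these 4 genes the agents differed at 12 h by less than 0.2 log2 units, while in the other 17 EB-up genes EB12 minus EC12 lay between -1.16 and -0.22.

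Among the weakly expressed EB-up genes, BXY_1280400 came first by the smallest of its 3 differences, which was 0.98. It had 13.5, 10.6 and 10.7 FPKM in EB24, against 4.38, 5.34 and 6.13 FPKM in EC24. It had 7.56, 3.62 and 5.46 FPKM in EB12, against 19.9, 9.61 and 11.8 FPKM in EC12. The agents were thus arranged in opposite orders at the 2 times, EB below EC at 12 h and above it at 24 h, with no overlap at either. Its log2 difference between agents was 1.00 at 24 h and -1.16 at 12 h.

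BXY_0909500 showed a similar reversal at a lower level, with 8.31, 8.0 and 8.02 FPKM in EB24 and 4.85, 3.14 and 3.98 in EC24. At 12 h it stood at 5.27, 3.48 and 4.96 FPKM in EB12 and 8.54, 5.65 and 7.55 in EC12. The EB24 mean of 8.11 ± 0.173 FPKM lay near the EC12 mean of 7.25 ± 1.47, and the EC24 mean of 3.99 ± 0.855 near the EB12 mean of 4.57 ± 0.957 (SD, n = 3 each). BXY_0901700 had 12.01, 11.5 and 12.8 FPKM in EB24, 6.76, 7.07 and 7.67 in EC24, 6.31, 4.56 and 5.67 in EB12 and 14.9, 8.95 and 10.2 in EC12. BXY_1697300 had 21.7, 24.4 and 21.98 FPKM in EB24, 13.1, 13.6 and 15.2 in EC24, 15.4, 12.5 and 11.4 in EB12 and 34.1, 19.02 and 20.9 in EC12. In both genes EB12 was the lowest group and the agents did not overlap at either time. BXY_1025000 likewise had no overlap at either time, with 8.35, 8.79 and 9.02 FPKM in EB24, 4.75, 4.55 and 4.65 in EC24, 6.58, 4.36 and 5.14 in EB12 and 6.6, 6.98 and 11.6 in EC12.

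In other EB-up genes 1 library set much of the 12 h mean. BXY_0830000 had 13.8, 16.1 and 16.8 FPKM in EB24, against 5.03, 5.22 and 5.29 FPKM in EC24. Its 12 h values were 8.54, 7.12 and 7.83 FPKM in EB12 and 7.22, 22.1 and 7.66 FPKM in EC12. EC12 replicate 2 stood far above the other 5 libraries of 12 h, which overlapped between agents, and the gene dropped out of the rule when any 1 of the EC12 replicates or EB12 replicate 3 was left out. BXY_0551300 had 9.38, 11.98 and 11.4 FPKM in EB24, 5.15, 5.29 and 9.14 in EC24, 6.93, 4.38 and 11.03 in EB12 and 16.8, 9.44 and 10.2 in EC12. EC12 replicate 1 was its highest value and EB12 replicate 2 its lowest, and EB24 overlapped EB12. BXY_1345700 had 10.1, 8.64 and 6.84 FPKM in EB24, 3.94, 3.09 and 2.98 in EC24, 4.44, 2.22 and 5.65 in EB12 and 9.09, 4.81 and 5.22 in EC12. Here too EC12 replicate 1 was the highest and EB12 replicate 2 the lowest of the 12 h values. BXY_1101700 differed in that EC12 was even, with 15.3, 16.5 and 15.8 FPKM in EB24, 10.1, 9.38 and 8.8 in EC24, 9.95, 14.6 and 7.39 in EB12 and 15.98, 14.5 and 16.8 in EC12.

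The other 8 EB-up genes were BXY_0373500, BXY_0388100, BXY_0335900, BXY_1699000, BXY_1298900, BXY_0143800, BXY_0116900 and BXY_0315200. BXY_0335900 was the gene of middling level, with 104 ± 2.61 FPKM in EB24, 60.3 ± 5.81 in EC24, 60.7 ± 13.6 in EB12 and 92.2 ± 32.98 in EC12. Its 24 h groups were tight and its 12 h groups overlapped. BXY_0116900 had the lowest mean of the 21, with 7.02, 6.18 and 7.08 FPKM in EB24, 4.12, 4.48 and 3.88 in EC24, 7.01, 2.83 and 4.28 in EB12 and 8.02, 6.66 and 4.97 in EC12. Its 24 h groups were apart and its 12 h groups overlapped.

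The EB-down genes had 0.242 to 0.606 times as much FPKM in EB24 as in EC24, with a median of 0.360 times. Their EB24 means were 0.406 to 0.661 times their EB12 means, and their EC24 means 1.41 to 3.65 times their EC12 means. Levels were spread more evenly, with 8 of the 17 under 20 FPKM, 3 from 20 to under 100, and 6 at 100 or more, against 16.3% of the background genes at 100 or more.

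BXY_0582900 had the largest smallest difference of the 3 in either set, with log2 changes of -1.07 over time in EB and 1.42 in EC. It had 16.3, 16.4 and 15.3 FPKM in EB24, against 62.8, 59.7 and 64.3 FPKM in EC24. Its 12 h values were 23.9, 47.9 and 36.4 FPKM in EB12 and 20.4, 25.2 and 22.6 FPKM in EC12. EC24 was highest, EB24 lowest, and both 12 h groups lay in between, EB12 with a wide spread. BXY_0214200 repeated this pattern at a lower level with all 4 groups apart. It had 8.19, 5.46 and 6.89 FPKM in EB24 and 27.2, 28.8 and 28.9 in EC24. It had 12.8, 12.98 and 17.8 FPKM in EB12 and 10.1, 9.0 and 9.56 in EC12. Its agent difference was -1.92 log2 units at 24 h and 0.54 at 12 h.

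BXY_0937900 had the widest difference between agents at 24 h of the 38 genes, at -1.97 log2 units. It had 203, 157 and 155 FPKM in EB24, against 643, 666 and 706 FPKM in EC24. At 12 h it had 307, 423 and 325 FPKM in EB12, against 467, 204 and 241 in EC12. The 24 h groups were far apart, while the EC12 values lay on both sides of the EB12 values. BXY_0522200 was the EB-down gene whose agents were closest at 12 h, 0.18 apart on the log2 scale. It had 32.2, 28.5 and 29.3 FPKM in EB24, 86.3, 97.2 and 98.8 in EC24, 53.4, 37.4 and 51.7 in EB12 and 52.03, 35.02 and 38.4 in EC12. BXY_1143400 was alike at a lower level, with 3.74, 3.6 and 4.85 FPKM in EB24, 13.4, 14.1 and 13.01 in EC24, 7.64, 6.53 and 9.52 in EB12 and 8.32, 5.95 and 5.57 in EC12. In both genes the EB24 and EC24 groups lay on opposite sides of overlapping 12 h groups.

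BXY_1088800 had the steepest change in adjuvant, 1.85 log2 units. It had 119.7, 129.6 and 109 FPKM in EB24 and 284, 294 and 316 in EC24, 333, 126 and 155 in EB12 and 79.9, 80.2 and 84.8 in EC12. EC12 was lowest and tight, so that EB24 stood above it. The lower EB24 mean relative to EB12 came with EB12 replicate 1 at 333 FPKM, while the other EB12 values were 126 and 155. BXY_0693400 was the other gene with EC12 as the lowest group mean on the log2 scale, with 2.89, 2.91 and 3.62 FPKM in EB24, 9.68, 10.4 and 14.1 in EC24, 6.73, 6.11 and 5.84 in EB12 and 6.63, 1.61 and 2.11 in EC12. EC12 replicate 1 was there as high as the EB12 values and the other EC12 values were below EB24.

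Several EB-down genes had their highest value in EB12 replicate 1. BXY_1418700, the most abundant of the 38, had 242, 240.0 and 256 FPKM in EB24, against 485, 513 and 510.4 in EC24. It had 861, 307 and 455 FPKM in EB12, against 337, 433 and 264 in EC12. The 24 h groups were tight and apart, and the EB12 values ranged over more FPKM than lay between the 24 h groups. BXY_1542000 was alike, with 171 ± 6.27 FPKM in EB24, 426 ± 10.9 in EC24, 422 ± 183 in EB12 and 303 ± 62.3 in EC12. BXY_0350300 had 3.95, 3.89 and 2.67 FPKM in EB24, 5.68, 6.58 and 6.83 in EC24, 14.1, 4.36 and 6.03 in EB12 and 4.6, 3.92 and 3.42 in EC12. On the log2(FPKM + 1) scale its EB12 mean was above its EC24 mean, and without EB12 replicate 1, EB12 replicate 3 or EC12 replicate 3 it no longer met the rule.

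BXY_0976700 had the lowest mean of the 17, with 2.83, 3.0 and 2.3 FPKM in EB24, 8.21, 7.49 and 7.07 in EC24, 7.8, 2.89 and 6.96 in EB12 and 5.98, 3.21 and 3.42 in EC12. BXY_0189400 had 4.52, 2.96 and 1.79 FPKM in EB24, 8.07, 10.2 and 7.49 in EC24, 7.44, 2.89 and 7.76 in EB12 and 3.87, 3.45 and 2.35 in EC12. BXY_0651800 had 8.0, 7.25 and 9.06 FPKM in EB24, 22.3, 23.3 and 21.98 in EC24, 13.2, 7.13 and 19.9 in EB12 and 10.7, 6.66 and 7.52 in EC12. In these 3 genes EB12 replicate 2 stood at or near the EB24 level while the other EB12 values did not. The remaining EB-down genes were BXY_1545000, BXY_0040000, BXY_0317500 and BXY_0783700. BXY_0040000 was even within groups, with 133 ± 1.34 FPKM in EB24, 241 ± 5.54 in EC24, 217 ± 29.6 in EB12 and 166 ± 9.26 in EC12 (SD, n = 3 each). Its groups did not overlap in any of the 4 comparisons.

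**Figure D2:**
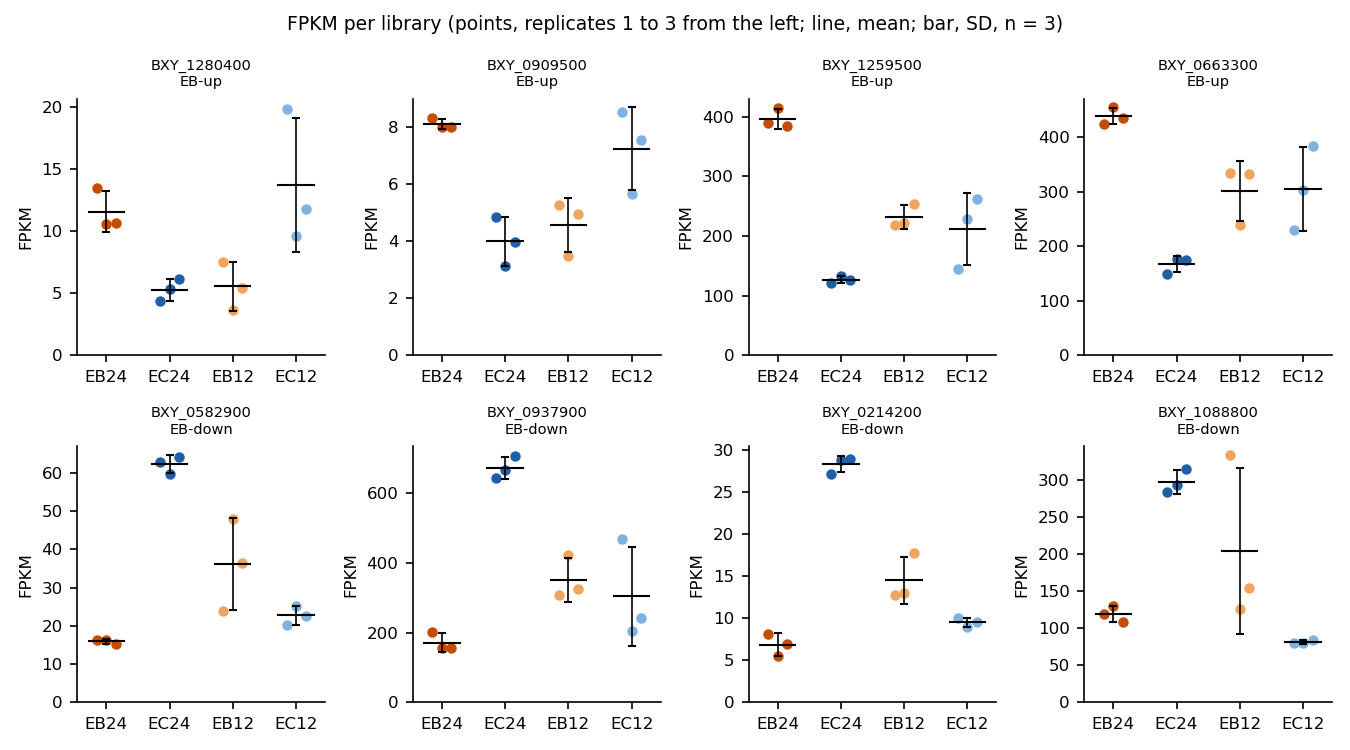
FPKM per library for 4 EB-up genes (top) and 4 EB-down genes (bottom), with EB24, EC24, EB12 and EC12 from left to right, the mean as a line and the SD as a bar (n = 3). The 24 h groups are apart in all 8 panels, and the 12 h groups overlap in 4 of them.

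The order of the 4 group means of log2(FPKM + 1) differed between the sets. In 14 of the 17 EB-down genes that order was EC24 highest, then EB12, EC12 and EB24. On the same scale the EB-up genes were mixed: 9 had EB24 highest, then EC12, EB12 and EC24, and 5 had EC12 highest, then EB24, EB12 and EC24. In 3 (BXY_1259500, BXY_0977300 and BXY_1016900) the order was EB24, EB12, EC12 and EC24, and in another 3 (BXY_0901700, BXY_0335900 and BXY_0143800) EB24, EC12, EC24 and EB12. The last, BXY_1697300, had EC12 highest, then EB24, EC24 and EB12. By the means of log2(FPKM + 1), EB24 therefore exceeded EC12 in 15 of the 21 EB-up genes and was under it in 15 of the 17 EB-down genes. By the same means EC24 was under EB12 in 17 of the 21 and above it in 16 of the 17. In BXY_0335900, BXY_1699000, BXY_0693400 and BXY_1418700 the means of FPKM itself stood in another order, with neighbouring groups changing places.

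At 12 h most of the genes had the agent difference of the opposite sign to that at 24 h. EB12 was lower than EC12 in 18 of 21 EB-up genes, with a median log2 difference of -0.55, and higher than EC12 in all 17 EB-down genes, with a median of 0.51. Among the background genes 62.5% had EB12 lower and 37.5% had it higher, with a median of -0.07. The 12 h difference equals the 24 h difference minus the change in EB plus the change in EC, so opposite changes over time favour this sign, and it is a description of the genes chosen. The size of the 24 h difference exceeded that of the 12 h difference in 18 of 21 EB-up and 16 of 17 EB-down genes. The exceptions were BXY_1280400, BXY_1697300 and BXY_0901700 among the EB-up genes and BXY_0350300 among the EB-down genes.

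**Figure D3:**
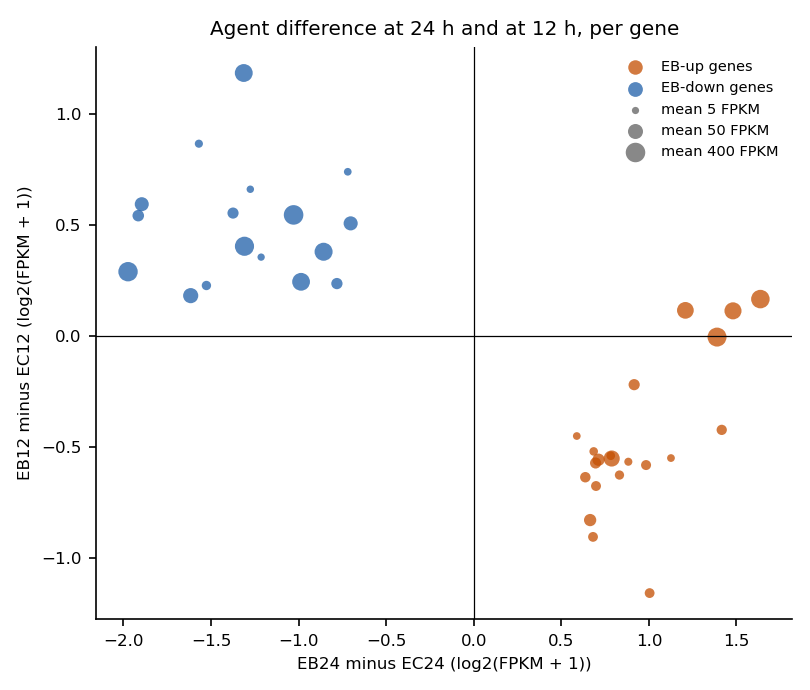
EB24 minus EC24 (x axis) against EB12 minus EC12 (y axis) in log2(FPKM + 1) for each of the 38 genes, with point area by mean FPKM. The 4 EB-up genes at 100 FPKM or more sit near 0 on the y axis, and all 17 EB-down genes sit above 0 on it.

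How far the replicates of the chosen groups stayed apart was counted next, and since the rule used these comparisons the counts describe the genes and support nothing. EB24 did not overlap EC24 in FPKM in 21 of 21 EB-up genes (48% of background genes with EB24 above EC24) and in 17 of 17 EB-down genes (17.6% with EB24 below). EB24 did not overlap EB12 in 18 EB-up genes (37.3%) and in 12 EB-down genes (21.9%). EC24 did not overlap EC12 in 17 EB-up genes (39.1%) and in 17 EB-down genes (27.8%). All 3 comparisons were without overlap in 14 EB-up genes (1.87% of background genes) and in 12 EB-down genes (0.376%). EB12 did not overlap EC12 in 7 EB-up genes (8.27% of background genes with EB12 below EC12) and in 3 EB-down genes (2.2% with EB12 above). Those 3 were BXY_0214200, BXY_1088800 and BXY_0040000.

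A linear model over all 12 libraries (limma, moderated variances, Benjamini-Hochberg adjustment over 13768 tested IDs, threshold 0.05) gave a similar description. EB24 was higher than EC24 at that threshold in 17 of 21 EB-up genes, against 14.5% of all tested IDs, and lower in 15 of 17 EB-down genes, against 4.74%. EB24 was higher than EB12 in 16 EB-up genes (30.3%) and lower in 11 EB-down genes (13.1%). EC24 was lower than EC12 in 14 EB-up genes (25.9%) and higher in 13 EB-down genes (24.7%). All 3 passed in 11 EB-up genes (0.341% of tested IDs) and in 8 EB-down genes (0.153%), so for 19 of the 38 the opposite changes both passed the test. In EB24 against EC24 a fit of the 24 h groups alone called 21 EB-up and 17 EB-down genes (4941 tested IDs higher and 2326 lower). A fit with weights per library also called 21 and 17 there (5614 and 2383). The main fit pools 1 variance per gene over all 12 libraries, although the 12 h libraries were less alike than the 24 h libraries. Without any 1 of the 6 libraries of 24 h, 18 to 21 of the 38 were called in EB24 against EC24, in place of 32. By set, 7 to 10 EB-up genes were then called in place of 17, and 11 or 12 EB-down genes in place of 15. Over all tested IDs the calls dropped as well, to 718 to 1051 higher in place of 1998. Those lower dropped to 262 to 310 in place of 653. Without any 1 of the 6 libraries of 12 h, 17 or 18 EB-up and 15 to 17 EB-down genes were called in EB24 against EC24. Over all tested IDs 1821 to 2540 were then called higher. The part of the pooled variance in the drop without a 24 h library was not tested. In EB24 against EB12, 7, 8 and 10 EB-up genes were called without EB24 replicate 1, 2 and 3, and 9 without EB12 replicate 2, in place of 16. Over all tested IDs 3373, 3195, 3353 and 3934 were called higher in these runs, in place of 4167. In EC24 against EC12, 9 EB-up genes were called without EC24 replicate 1 or 2, in place of 14. Over all tested IDs 3235 were called lower without EC24 replicate 1 and 2983 without EC24 replicate 2, in place of 3561.

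The calls over time in EB also moved with the scaling. After median ratio scaling EB24 was higher than EB12 in 8 EB-up genes (22.7% of tested IDs) and lower in 17 EB-down genes (21.2%). After quantile normalization these were 9 EB-up genes (22.2%) and 16 EB-down genes (21.6%).

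The 11 EB-up genes that passed all 3 were BXY_0373500, BXY_0663300, BXY_0830000, BXY_0901700, BXY_0909500, BXY_0977300, BXY_1025000, BXY_1101700, BXY_1259500, BXY_1280400 and BXY_1697300. The 8 EB-down genes were BXY_0040000, BXY_0214200, BXY_0522200, BXY_0582900, BXY_0937900, BXY_0976700, BXY_1143400 and BXY_1545000. The interaction, the agent difference at 24 h minus that at 12 h, was positive and passed in 17 EB-up genes (6.46%), and negative and passed in 14 EB-down genes (1.86%). Over all tested IDs the interaction passed in 889 with a positive and 256 with a negative sign as deposited, against 204 and 280 after median ratio scaling and 554 and 425 after quantile normalization. Of the members, 9 EB-up genes (1.48%) and 14 EB-down genes (2.03%) passed after median ratio scaling, and 15 (4.02%) and 16 (3.09%) after quantile normalization. Without the filter on low values 10 EB-up genes (4.27%) and 11 EB-down genes (0.987%) passed. Leaving out any 1 of the 24 h libraries gave 5 to 8 EB-up genes, in place of 17. Positive calls over all tested IDs dropped to 123 to 297 in these runs, in place of 889. The EB-down genes called were 8 without EB24 replicate 2 or EC24 replicate 3 and 9 without EB24 replicate 3 or EC24 replicate 2, in place of 14. Negative calls over all tested IDs were 59, 55, 54 and 57 in these runs, in the same order, in place of 256. EB12 against EC12 passed in 0 of the 21 and 0 of the 17 (0.0436% of tested IDs lower and 0.0726% higher). At an unadjusted p under 0.05 limma gave 10 EB-up genes lower (8.62% of tested IDs) and 6 EB-down genes higher (3.53%) there. These unadjusted p-values use the variance pooled over both times, although the 12 h libraries were less alike. In either direction 1673 tested IDs had such a p in the main fit, against 566 in a fit of the 12 h groups alone. At the adjusted threshold a fit with weights per library called 6 EB-up genes lower (5.43%) and 6 EB-down genes higher (3.44%). The fit of the 12 h groups alone called 0 and 0 (0% of tested IDs in each direction).

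A library that took no part in the choice gives a reading with less selection in it. The rule was applied to 11 libraries, and the library left out was compared with the mean of the group it should differ from, which had itself been used to choose. Left-out EB24 libraries were at least 0.5 log2 units above the EC24 mean in 59 of 61 EB-up choices, summed over the 3 replicates so that a gene can count up to 3 times, where 18.9% of all genes within the limits were. They were at least 0.5 below it in 49 of 49 EB-down choices (6.22% of all genes). Left-out EC24 libraries were at least 0.5 below the EB24 mean in 62 of 70 EB-up choices (19.3%) and above it in 50 of 51 EB-down choices (6.19%). The other 2 replicates and the mean compared with had already been chosen to differ by 0.5. The median spread at 24 h was only 0.10 log2 units in EB-up and 0.12 in EB-down genes. A left-out replicate was therefore likely to follow the others, and the share of unselected genes is not a matched comparison. The counts show that the 24 h replicates were alike and do not test the difference between agents.

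The changes over time were present in fewer readings. Left-out EB12 libraries were at least 0.5 below the EB24 mean in 34 of 67 EB-up choices (28.2% of all genes) and above it in 31 of 72 EB-down choices (13.3%). Left-out EC12 libraries were at least 0.5 above the EC24 mean in 26 of 73 EB-up choices (28%) and below it in 34 of 62 EB-down choices (23.6%). The lowest shares came from 2 libraries. Without EB12 replicate 2, 44 EB-down genes were chosen, and that replicate was in the chosen direction by 0.5 in 9 of them. Among all genes within the limits it was so in 1780 of 9567, a similar share. Without EC12 replicate 2, 34 EB-up genes were chosen, and that replicate was in the chosen direction by 0.5 in 8. Among all genes within the limits it was so in 2629 of 9234, a larger share. The highest shares at 12 h came from EB12 replicate 1 in the EB-down genes, with 13 of 16, and EC12 replicate 3 there, with 12 of 15. Among all genes within the limits these were 1029 of 9304 and 2269 of 9092.

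**Figure D4:**
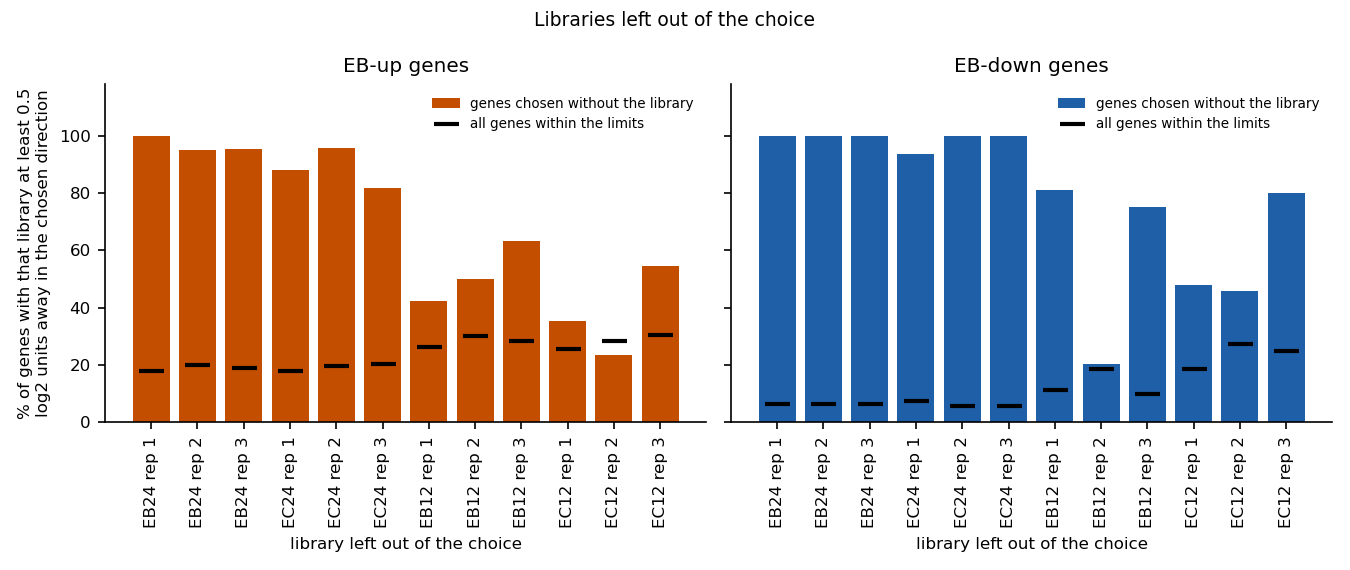
Share of the genes chosen from 11 libraries (bars) in which the library left out, named on the x axis, differed by at least 0.5 log2 units in the chosen direction, with the share of all genes within the limits as a black line. The bars of the 24 h libraries stand highest, the lowest of them at 18 of 22 genes, and those of the 12 h libraries are lower and uneven.

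Individual 12 h libraries stood out within the 38 genes. In the EB-up genes EC12 replicate 1 was the highest of the 6 libraries of 12 h in 13 of 21 (25.4% of background genes), and EB12 replicate 2 was the lowest in 15 of 21 (21.3%). In the EB-down genes EB12 replicate 1 was the highest of the 6 in 11 of 17 (10.01%). The rule favours EC12 above EB12 in EB-up genes and the reverse in EB-down genes, so these background shares are not a matched comparison. Within its own group, EC12 replicate 1 was the highest in 61.9% of EB-up genes, against 35.3% of background genes. EB12 replicate 1 was the highest of its group in 64.7% of EB-down genes, against 31.1%. The 38 genes were chosen on these same values. EB12 replicate 2 lay above its group mean in 2 of 21 EB-up genes and in 2 of 17 EB-down genes, against 5531 of the 9310 background genes. Its median deviation from the group mean was -0.30 log2 units in EB-up genes, -0.36 in EB-down genes and 0.07 in the background. The part that these libraries play in the changes over time was not tested beyond leaving each one out. Applied without EB12 replicate 2, the rule kept 12 of the 21 EB-up genes and 17 of the 17 EB-down genes. Applied without EC12 replicate 1, it kept 11 of the 21 and 13 of the 17.

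**Figure D5:**
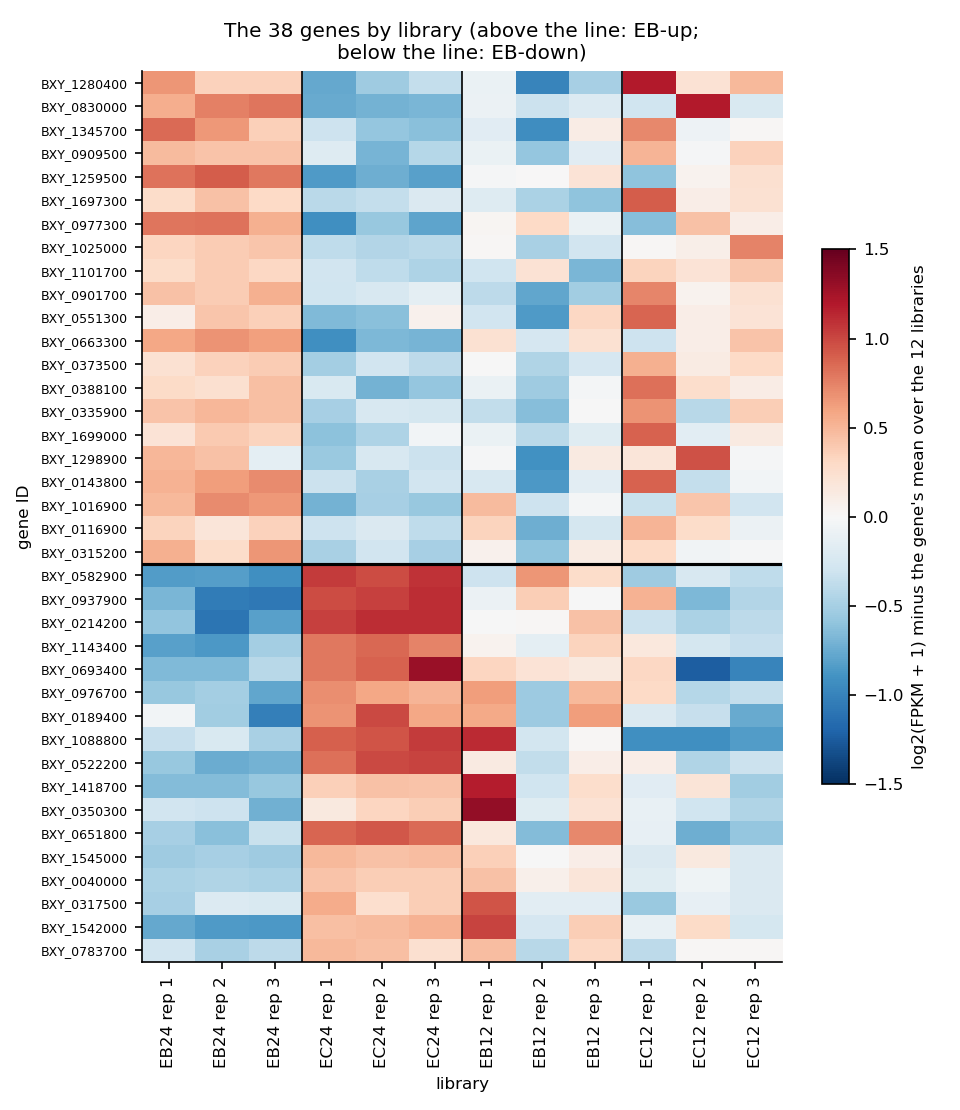
log2(FPKM + 1) of each gene minus its mean over the 12 libraries, with the 21 EB-up genes above the line, the 17 EB-down genes below it, and the libraries in the order EB24, EC24, EB12 and EC12. The 24 h columns are uniform within a group, while EB12 replicate 2 is pale to blue and EC12 replicate 1 is red in many EB-up genes.

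The genes also varied together within the 12 h groups. The correlation of deviations from the group means over the 6 libraries of 12 h had a median of 0.40 over the 136 pairs of EB-down genes, 0.19 over the 210 pairs of EB-up genes, and 0.02 over all pairs of background genes. All pairs share the same libraries and their scaling. The 38 genes were chosen on these same 12 h values, each set in 1 direction, while the background pairs mix directions. The median 12 h spread was also 0.48 in EB-down and 0.40 in EB-up genes, against 0.24 in the background. The background pairs are therefore not a matched comparison. Over all 12 libraries the most alike pairs, picked after the values were seen, were BXY_1545000 with BXY_0040000 (r = 0.975), BXY_1418700 with BXY_1542000 (r = 0.967), and BXY_1259500 with BXY_0663300 (r = 0.957), a likeness that the rule favours. BXY_1542000 had 0.652 to 0.959 times the FPKM of BXY_1418700 in the 12 libraries. Whether reads are shared between such genes was not tested. None of the 38 IDs was next to another in the sorted IDs of the table, and the closest were BXY_0976700 and BXY_0977300, 6 IDs apart and of opposite sets.

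Some genes met or missed the limits by small margins. Just inside it, BXY_0116900 had log2 changes of 0.51 in EB and -0.53 in EC, and BXY_0315200 of 0.63 and -0.50. Just outside it, BXY_0960600 had 0.49 and -0.69, and BXY_1626300 had 1.06 and -0.47. For the EB-down set, BXY_1542000 with -1.20 in EB and 0.51 in EC and BXY_0783700 with -0.50 and 0.51 were just inside. BXY_1726000 with -0.49 and 1.29 and BXY_0863500 with -0.93 and 0.48 were just outside. The spread limit alone kept out 104 genes that met every other limit of the EB-down set, and 2 of the EB-up set. The lower limit on the mean alone kept out 10 and 15.

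Genes that moved in 1 agent and were level in the other were far more numerous. With the same limits, 307 genes were higher in EB24 than in EB12 and within 0.5 of level in EC, and 665 were lower in EC24 than in EC12 and within 0.5 of level in EB. On the other side, 42 were lower in EB24 than in EB12 and level in EC, and 232 were higher in EC24 than in EC12 and level in EB. The median EB24 minus EC24 was 0.83 log2 units in the 21 EB-up genes, against 0.70 and 0.68 in the 307 and the 665. It was -1.31 in the 17 EB-down genes, against -0.75 and -0.72 in the 42 and the 232. The median spread at 12 h was 0.40 in the EB-up genes, against 0.37 and 0.25, and 0.48 in the EB-down genes, against 0.42 and 0.32. The mean was under 20 FPKM in 76.2% of the EB-up genes, against 67.8% of the 307 and 21.1% of the 665. EB12 was lower than EC12 in 85.7% of the EB-up genes, against 74.3% and 55.5%. It was higher in 100% of the EB-down genes, against 78.6% of the 42 and 47.4% of the 232. Low levels and the sign at 12 h were thus not particular to the 38. These differences were not tested, since a gene must cross more limits to enter the 38.

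FPKM depends on how libraries are scaled, and the median EB24 minus EB12 of the background genes was 0.10 as deposited and -0.08 after median ratio scaling. Relative to those medians the EB-up median was 0.53 higher as deposited and 0.54 higher after scaling, and the EB-down median was -0.91 and -0.87. All 38 genes kept the sign of each of the 3 differences under both median ratio scaling and quantile normalization. Against the fixed limit of 0.5, though, 8 of the 21 EB-up genes still met the rule after median ratio scaling and 15 of the 17 EB-down genes did. The rule was met in every one of the 12 choices that left out a library by 3 EB-up genes (BXY_1280400, BXY_0909500 and BXY_1259500) and 5 EB-down genes (BXY_0582900, BXY_0214200, BXY_1143400, BXY_0522200 and BXY_0040000). Across those choices, both other pseudocounts, both scalings and group medians it was met by 2 EB-up genes, BXY_1280400 and BXY_1259500, and by 4 EB-down genes, BXY_0582900, BXY_0214200, BXY_1143400 and BXY_0522200.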

How the data were processed

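For 18036 IDs in 12 libraries the authors deposited FPKM rounded to 2 decimals. Per the submitters' processing notes TopHat2 2.1.1 was used. Neither build, annotation, counting tool nor strand use is given in the sources used here, and reads shared by near-identical or overlapping genes may be split between them. Each value column matched 1 library title, from which groups and replicate numbers were taken, and no 2 libraries were identical.

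From these values log2(FPKM + 1) was computed, a scale that understates changes of low genes, and the rule was applied to group means. limma 3.58.1 in R 4.3.3 (eBayes with trend, 1 mean per group over 12 libraries, two-sided, Benjamini-Hochberg adjustment) was fitted to the 13768 IDs with at least 1 FPKM in at least 3 libraries, after a test on simulated data. No count model was used, since FPKM values are not counts.

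The 38 genes, the rule and the tests were chosen with earlier results of these data known. In each set the text names the 12 genes with the largest smallest difference of the 3 the rule uses, the highest and lowest mean, and those nearest the threshold, with others beside counts. Alternatives were other pseudocounts, scalings, limits, group medians, limma settings, a replicate block, and leaving out each library.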

Additional observations from a re-analysis of the deposited data

Results flagged for a closer look

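The agent difference was not the same at 24 h and at 12 h in most of the 38 genes by the interaction term of limma (Benjamini-Hochberg adjusted p under 0.05 over 13768 IDs). It passed with a positive sign in 17 of the 21 EB-up genes (6.46% of tested IDs) and with a negative sign in 14 of the 17 EB-down genes (1.86%). After median ratio scaling these were 9 EB-up genes (1.48%) and 14 EB-down genes (2.03%). The genes were chosen on the differences that make up this term, so these counts describe the choice. With the values as deposited, the EB-up genes that did not pass were BXY_0116900, BXY_0551300, BXY_1298900 and BXY_1699000, and the EB-down genes BXY_0317500, BXY_0350300 and BXY_0783700.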

How the results depend on the processing

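All 38 genes kept the sign of the 3 differences that the rule uses in every alternative run, but the membership changed with the limits, the scaling and single 12 h libraries. The 21 EB-up genes became 9 after median ratio scaling (8 of them among the 21), 15 after quantile normalization (8) and 21 with group medians (12). They became 36 without limits on the mean, 3 with a spread limit of 0.3, and 47, 2 and 0 with difference limits of 0.4, 0.75 and 1. The 17 EB-down genes became 29 after median ratio scaling (15 of them among the 17), 33 after quantile normalization (12) and 22 with group medians (14). They became 27 without limits on the mean, 121 without a spread limit and 5 with a spread limit of 0.3. With difference limits of 0.4, 0.75 and 1 they became 31, 6 and 2. Leaving out 1 library gave 17 to 34 EB-up and 12 to 44 EB-down genes, the highest without EC12 replicate 2 and EB12 replicate 2. Of the 38, limma called 32 in EB24 against EC24 (18 to 34 with 1 library left out), 27 in EB24 against EB12 (16 to 30), 27 in EC24 against EC12 (20 to 35) and 31 in the interaction (13 to 33). Of all tested IDs, 14.5% were called in the EB-up direction and 4.74% in the EB-down direction in EB24 against EC24. These shares were 30.3% and 13.1% in EB24 against EB12. They were 25.9% and 24.7% in EC24 against EC12, and 6.46% and 1.86% in the interaction. Without any 1 of the 24 h libraries, calls between the agents at 24 h and in the interaction dropped by over 1.5 times in the EB-up genes. Over all 13768 IDs they dropped too, to 718 to 1051 higher in EB24 than in EC24, in place of 1998. Positive interactions dropped to 123 to 297, in place of 889. A replicate block called 32, 27, 26 and 30 of the 38. Over all IDs it called 1862 higher and 623 lower in EB24 against EC24, and 4156 and 1761 in EB24 against EB12. In EC24 against EC12 it called 3403 higher and 3483 lower, and 763 interactions were positive and 231 negative. Deviations of same-numbered libraries correlated at -0.175 to 0.343. Under different numbers the 12 h libraries reached -0.567 (EB12 replicate 1 with EC12 replicate 3) and 0.529 (EB12 replicate 2 with EC12 replicate 3). With 3 libraries a group these values cannot decide whether any libraries are paired. The agent difference at 12 h, which limma did not call, changed sign in 5 of the 38 genes with group medians, in 1 after median ratio scaling, and in 0 to 3 with 1 library left out. Of 1904 values of the 28 genes that the naming rule gives, 44 moved by over 1 SD, and 0 of those called by limma changed sign. The depth of the libraries is unknown, and genes of few FPKM carry a counting error that cannot be given.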
